A study of Homo sapiens with 11 samples.

Results

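TFIIH is the general transcription factor that opens promoter DNA for RNA polymerase II and phosphorylates the polymerase tail, and it also unwinds damaged DNA in nucleotide excision repair. Its 10 subunit genes were examined in MDA-MB-231 cells, a human triple-negative breast cancer (TNBC) line, with the histone variant macroH2A1.1 (mH2A1.1) present or depleted. The genes were chosen by membership of the complex, and GTF2H3 was chosen because it is lower in the depleted cells in these same data, so its fold change is a description and was not tested. Total RNA was sequenced from 2 libraries of wild-type (WT) cells, which received the transfection reagent without siRNA, and from 2 libraries of mH2A1.1 KD cells, which received siRNA at 11 nM, all collected on day 3. No control siRNA was used, so siRNA transfection and loss of mH2A1.1 cannot be told apart. Peaks came from ChIP-seq of WT cells with a custom polyclonal antibody against mH2A1.1 and with Ab37264, which recognizes total mH2A1, 1 library each. Counts were analysed for 7 of the 10 genes (GTF2H1, GTF2H3, GTF2H5, ERCC2, ERCC3, CCNH and MNAT1) out of 23167 genes in each count table. Counts of GTF2H2, GTF2H4 and CDK7, and of the GTF2H2 copies GTF2H2B and GTF2H2C, are not analysed here, and peaks were examined at all 10.

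The complex has a core and a kinase module. In the core, ERCC3 (XPB) is a DNA translocase needed for promoter opening and ERCC2 (XPD) is a helicase needed for repair. GTF2H1, GTF2H2, GTF2H3, GTF2H4 and GTF2H5 hold the core together, GTF2H2 contacts and stimulates ERCC2, and GTF2H4 and GTF2H5 act on ERCC3. The kinase module consists of CDK7, its cyclin CCNH and the assembly factor MNAT1, and also activates cell-cycle kinases.

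The libraries held between 2309549 and 9794674 counts, the fewest in KD replicate 2. That library held 30 counts on chromosome 21 and 0 on chromosomes 22 and X, so genes of these chromosomes were left out of the fit, and no TFIIH gene lies there. KD replicate 2 also differed from the WT mean with exon GC content. Its median log2 ratio was -0.66 over the 3648 genes of lowest GC content and 0.64 over the 3648 of highest, against -0.20 and 0.16 for KD replicate 1. Fold changes of the TFIIH genes are therefore also given without this library and with offsets for gene length and GC content. MACROH2A1, the targeted gene, was at 385 and 394 CPM (counts scaled to a common library size by the TMM method of edgeR) in WT and 274 and 300 CPM in KD. Both KD libraries were thus below both WT libraries, as for 32.4% of all genes tested. The reads of MACROH2A1 come from both splice isoforms, and its log2 fold change was -0.44 (SE 0.173, adjusted p = 0.205, edgeR quasi-likelihood test). Of the line's markers, VIM, CD44 and EGFR lay between 548 and 4726 CPM in the 4 libraries, GATA3 lay between 17.8 and 24.6 CPM, and ESR1 and PGR had 0 counts, which allows at most 1.42 CPM in the shallowest library. Of the markers of other cells, PECAM1 lay between 3.05 and 5.48 CPM, and COL1A1 was at 9.68 and 8.68 CPM in WT and 18.3 and 33.1 CPM in KD. The part of these differences in the results was not tested.

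Among the 10 genes, 3 had an mH2A1.1 peak at the transcription start site (TSS), namely GTF2H1, GTF2H3 and ERCC3. The upstream stretches of these 3 genes are shown because they lie inside the mH2A1.1 peaks. They come from RefSeq (GRCh38.p14), run in the direction of each gene and end at the last base before the RefSeq start. The GTF2H3 stretch is chr12:123633687-123633828 on the plus strand, the GTF2H1 stretch is chr11:18322417-18322566 on the plus strand and the ERCC3 stretch is chr2:127294145-127294294 on the minus strand. Capitals mark the ETS-type motif CCGGAAG or its reverse complement CTTCCGG.
GTF2H3: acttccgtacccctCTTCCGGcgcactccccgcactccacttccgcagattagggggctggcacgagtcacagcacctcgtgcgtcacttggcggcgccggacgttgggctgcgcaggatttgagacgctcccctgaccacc
GTF2H1: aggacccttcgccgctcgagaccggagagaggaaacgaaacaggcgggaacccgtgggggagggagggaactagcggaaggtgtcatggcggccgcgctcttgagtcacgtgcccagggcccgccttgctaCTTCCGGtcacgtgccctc
ERCC3: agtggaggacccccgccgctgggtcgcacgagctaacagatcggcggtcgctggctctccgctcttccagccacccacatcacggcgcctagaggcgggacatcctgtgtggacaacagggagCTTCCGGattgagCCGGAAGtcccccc

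The 142 bases printed for GTF2H3 are the whole interval between its RefSeq start at 123633829 and that of EIF2B1 at 123633686. EIF2B1, a subunit of the translation initiation factor eIF2B, is transcribed from the other strand, so both genes start at the edges of this stretch. In GENCODE release 44 the annotated starts, 123633739 and 123633766, overlap by 28 bp.

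The motif was searched on both strands from 250 bases before to 50 after each RefSeq start. It was present in 4 of the 10 TFIIH promoters, those of GTF2H1, GTF2H2, GTF2H3 and ERCC3, and in 10.7% of 27305 promoters. GTF2H3 had a match 128 bases before its start, marked above, and another 152 bases before it, which lies past the EIF2B1 start. The match of GTF2H1 began 19 bases before the start, and those of ERCC3 27 and 14 bases before it. The GC box (GGGCGG) was present in 7 of 10 TFIIH promoters and in 44.6% of all promoters, and the CCAAT box (CCAAT) in GTF2H4 and ERCC2, 2 of 10, against 35.7%. The E2F motif (GGCGGGAA) was found in GTF2H1, 1 of 10, against 3.18%. The TATA box (TATAAA), the CRE (TGACGTCA) and the NRF1 motif were found in 0 of 10, against 12.0%, 1.98% and 1.36% of all promoters. No match overlapped a match of another motif in these 10 promoters, and a match is a run of letters, not a site shown to be bound.

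The mH2A1.1 peak at GTF2H3 (ENSG00000111358, chr12:123633739-123662604, plus strand, GRCh38) spanned chr12:123633001-123636000. It reached from 738 bp before the GENCODE start to 2261 bp after it and covered 7.68% of the gene, as well as the start of EIF2B1. The peak was a single 3000 bp window, the smallest width in the list, as were 60.3% of the 30687 mH2A1.1 peaks. The nearest total mH2A1 peak was 60739 bp from the start.

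The peak at GTF2H1 (ENSG00000110768, chr11:18322295-18367045, plus strand) was wider, 9 kb, and spanned chr11:18315001-18324000. A further mH2A1.1 peak of 3 kb, at chr11:18345001-18348000, lay within the gene, and together they covered 10.4% of it. The peak at ERCC3 (ENSG00000163161, chr2:127257290-127294166, minus strand) was also 9 kb wide, at chr2:127287001-127296000, and covered 19.3% of the gene. None of these peaks overlapped a total mH2A1 peak.

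ERCC2 (ENSG00000104884, chr19:45349837-45370918, minus strand) had its mH2A1.1 peak at the other end. A 51 kb peak, chr19:45306001-45357000, covered the 3′ end of the gene and 34.1% of its length, began 13918 bp after the start and overlapped total mH2A1 peaks. The nearest mH2A1.1 peak to the ERCC2 start lay 4083 bp upstream. ERCC2 was the only TFIIH gene with a total mH2A1 peak in its body, which covered 14.3% of it.

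No peak of either antibody touched GTF2H2 (chr5:71035016-71067689), GTF2H4 (chr6:30908207-30914106), GTF2H5 (chr6:158168350-158199344), CDK7 (chr5:69234795-69277430), CCNH (chr5:87318416-87412930) or MNAT1 (chr14:60734742-60969965). The distance from their starts to the nearest mH2A1.1 peak ran from 11742 bp for MNAT1 to 629312 bp for GTF2H2.

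A peak at the TSS meant an overlap of at least 1 bp with the 500 bp on each side. Of 10943 genes tested for expression, 46.9% had an mH2A1.1 peak there, 18.4% a total mH2A1 peak and 26.2% an mH2A1.1 peak that overlapped a total mH2A1 peak, called common. The TFIIH genes stood at 3, 0 and 0 of 10. With peaks of 6000 bp or more only, GTF2H3 lost its peak and 2 genes kept theirs. The share over all genes at that width is not given here. With 1 library per antibody all peaks are single readings without a replicate check.

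**Figure D1:**
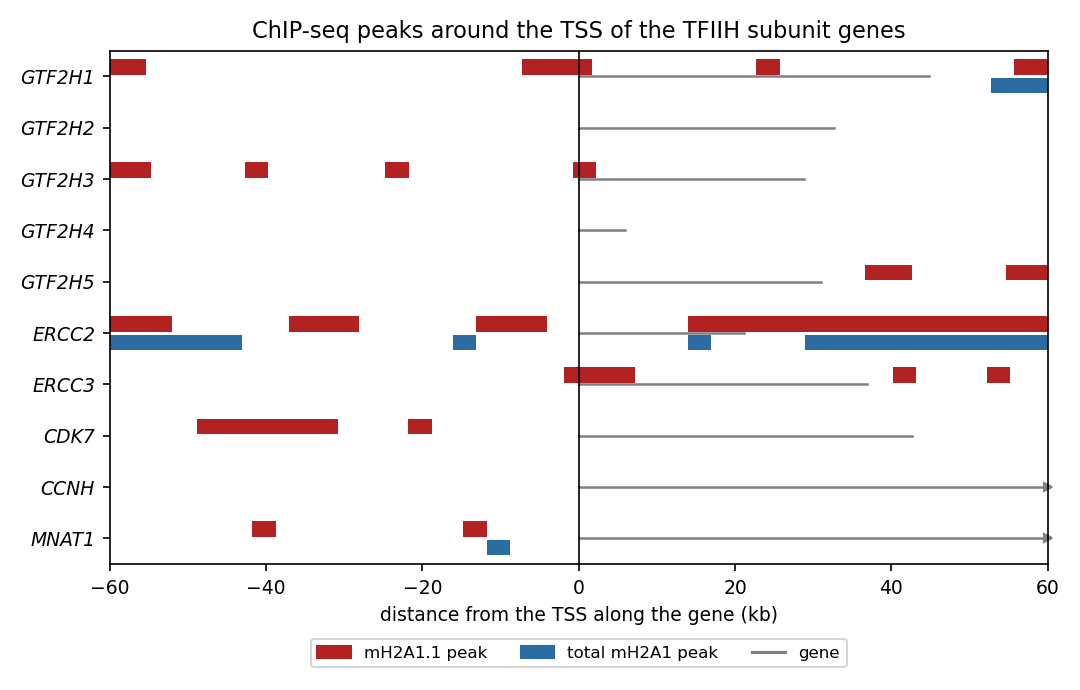
Peaks within 60 kb of the GENCODE start of each TFIIH subunit gene, drawn along the gene with distance in kb on the x axis. Red bars are mH2A1.1 peaks, blue bars are total mH2A1 peaks and grey lines are genes, with arrowheads where a gene runs past the edge. Red bars cross the start of GTF2H1, GTF2H3 and ERCC3, and no blue bar crosses any start.

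In RNA-seq, GTF2H3 had the lowest KD level relative to WT of the 7 TFIIH genes counted. The gene was covered by 544 reads in WT replicate 1, 428 in WT replicate 2, 178 in KD replicate 1 and 41 in KD replicate 2. After TMM normalization, these were 57.2 and 56.3 CPM in WT and 33.6 and 19.4 CPM in KD. The WT libraries lay close together, both KD libraries lay below them, and the KD libraries differed from each other more than the WT libraries did. The mean was 56.8 ± 0.668 CPM in WT (SD, n = 2) and 26.5 ± 10.1 CPM in KD (SD, n = 2). The log2 fold change was -1.05 (SE 0.268), which is 2.07-fold lower in KD. In bulk RNA, less RNA per cell and fewer cells with the transcript cannot be told apart. Without KD replicate 2 the log2 fold change was -0.75, and without KD replicate 1 it was -1.56.

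The partner subunits were tested, since they entered by membership of the complex. Of 6 partners, 0 were called by edgeR at the thresholds of the study (fold change above 1.5, adjusted p below 0.1), and 0 had an unadjusted p under 0.05. Over all 10963 genes tested, edgeR called 0, which is 0%, and 2063 passed the fold at an unadjusted p under 0.05. DESeq2 called 874 of 7765 genes with an adjusted p, 11.3%, and 0 of the 6 partners. With offsets for gene length and GC content, edgeR called 593 genes, 5.41%, and again 0 of the 6 partners. Summed over the 6 partners, the level was 377 and 392 CPM in WT and 372 and 419 CPM in KD. Each adjusted p of the partners below is from the quasi-likelihood test of edgeR with Benjamini-Hochberg adjustment over all genes tested. Nothing in the labels says that the replicates were separate cultures, so these p-values measure the spread between the libraries, which may be technical.

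**Figure D2:**
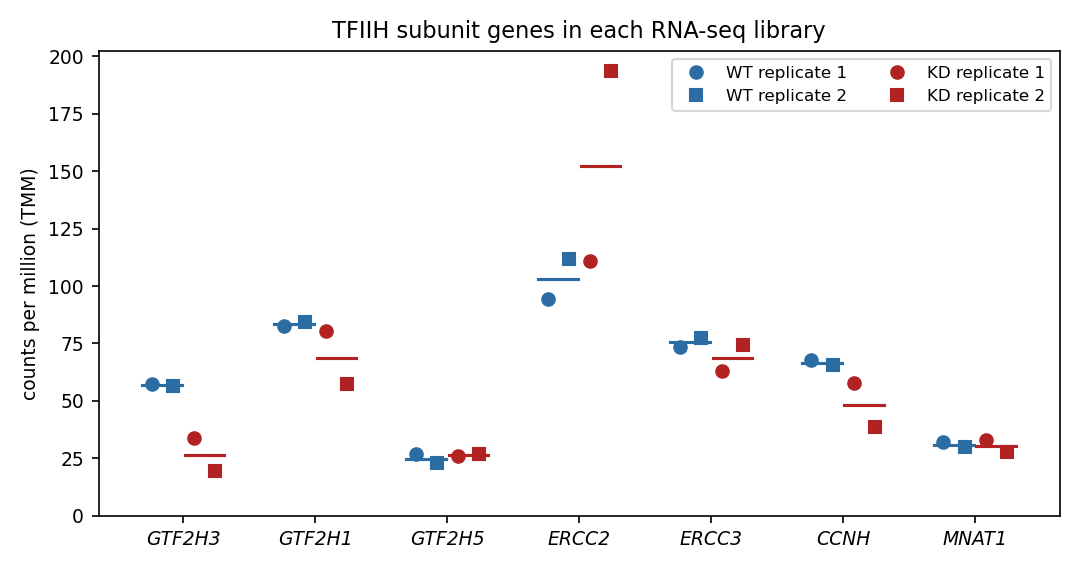
Level of the 7 TFIIH subunit genes with counts, in CPM after TMM normalization, in each of the 4 RNA-seq libraries. Blue points are WT, red points are KD, circles are replicate 1, squares are replicate 2 and lines are group means. Both KD points lie below both WT points for GTF2H3, GTF2H1 and CCNH, and KD replicate 2 of ERCC2 stands highest at 194 CPM.

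GTF2H1, a scaffold of the core, was at 82.5 and 84.2 CPM in WT and 80.5 and 57.2 CPM in KD. KD replicate 1 was close to the WT libraries and KD replicate 2 was lower. The log2 fold change was -0.26 (SE 0.214, adjusted p = 0.453), and without KD replicate 2 it was -0.046. Without KD replicate 1 it was -0.55. GTF2H5, the smallest subunit, was at 26.7 and 22.7 CPM in WT and 26.1 and 26.9 CPM in KD. Its groups overlapped, with a log2 fold change of 0.09 (SE 0.207, adjusted p = 0.784) and of 0.07 without KD replicate 2.

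ERCC3 was at 73.4 and 77.5 CPM in WT and 63.1 and 74.2 CPM in KD. The groups overlapped, and the log2 fold change was -0.14 (SE 0.185, adjusted p = 0.631), or -0.25 without KD replicate 2. ERCC2 was at 94.2 and 112 CPM in WT and 111 and 194 CPM in KD. KD replicate 1 lay within the WT range, and the high KD mean of ERCC2, 152 ± 58.5 CPM (SD, n = 2), came from KD replicate 2. The log2 fold change was 0.55 (SE 0.281, adjusted p = 0.263), and without KD replicate 2 it was 0.12. ERCC2 has the most GC-rich exons of the 7 genes, at 59.7%.

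In the kinase module, CCNH was at 67.7 and 65.6 CPM in WT and 57.8 and 38.8 CPM in KD. Each KD library was under each WT library, by less in KD replicate 1. The log2 fold change of CCNH was -0.44 (SE 0.230, adjusted p = 0.271), and without KD replicate 2 it was -0.20. MNAT1 was at 32.0 and 29.9 CPM in WT and 33.1 and 27.9 CPM in KD. Its groups overlapped, and the log2 fold change was -0.01 (SE 0.202, adjusted p = 0.988), with a 95% interval of -0.49 to 0.47. Without KD replicate 2 it was 0.10.

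KD values lay wholly under WT values for 3 of the 7 genes, GTF2H1, GTF2H3 and CCNH, and wholly over them for 0 of 7. Over all genes tested, 32.4% had both KD libraries below and 32.5% had both above, so this pattern is common in these libraries. Of the 3 genes with an mH2A1.1 peak at the start, GTF2H3 and GTF2H1 were in this group and ERCC3 was not, and CCNH was in it without a peak.

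**Figure D3:**
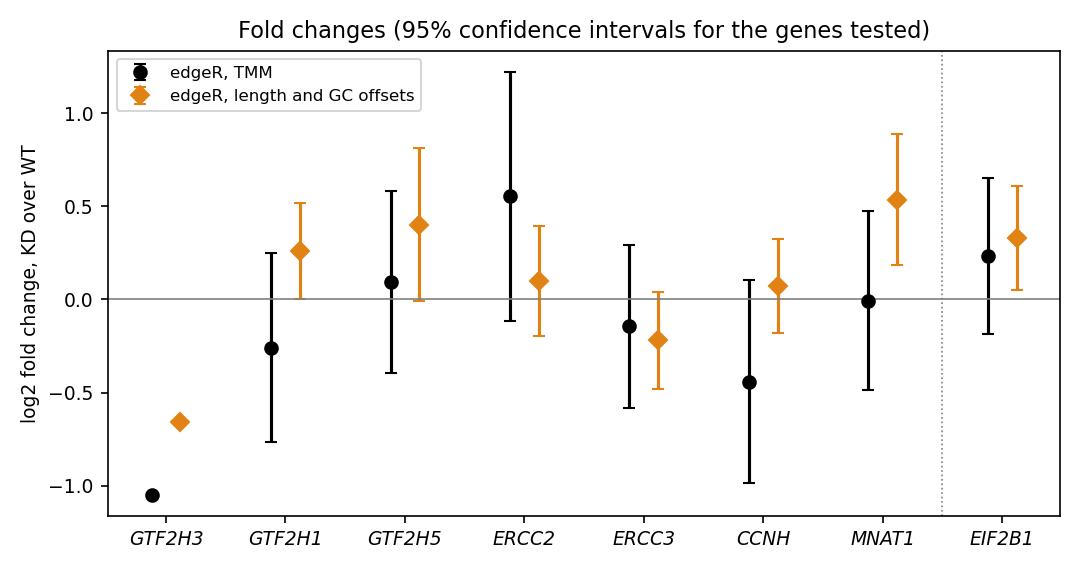
Log2 fold change of KD over WT for the 7 TFIIH subunit genes and EIF2B1, from edgeR with TMM (black circles) and with offsets for gene length and GC content (orange diamonds). Bars are 95% confidence intervals and are left out for GTF2H3, which was chosen on this contrast. GTF2H3 is lowest in both fits, at -1.05 and -0.66, and the partners run from -0.44 to 0.55 and from -0.22 to 0.54.

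GTF2H3 was also set against its partners within each library, which does not depend on library size. Of the reads on the 7 genes, GTF2H3 held 13.2% (exact Clopper-Pearson 95% interval 12.2% to 14.3%) in WT replicate 1 and 12.6% (11.5% to 13.7%) in WT replicate 2. It held 8.30% (7.17% to 9.55%) in KD replicate 1 and 4.42% (3.19% to 5.95%) in KD replicate 2. The intervals cover counting error only. Since GTF2H3 was chosen for its lower KD level in these libraries, the lower KD shares are a description and not a test. The log2 ratio of the mean KD share to the mean WT share was -1.02.

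Taken against each partner, GTF2H3 reads per 100 reads of the partner were lower in both KD libraries than in both WT libraries for all 6. This too is a description, since GTF2H3 was chosen on these libraries. Against GTF2H1 the values were 69.4 and 66.9 in WT and 41.8 and 33.9 in KD. Against CCNH, the partner closest to it in fold change, they were 84.5 and 85.8 in WT and 58.2 and 50.0 in KD. Against ERCC2 they were 60.8 and 50.4 in WT and 30.3 and 10.0 in KD, the largest relative difference among the partners.

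The exons of GTF2H3 have a GC content of 39.9%, in the range where KD replicate 2 was low. Among the 547 genes of like GC content, the median log2 ratio to the WT mean was -0.18 in KD replicate 1 and -0.61 in KD replicate 2, where CPM + 0.5 was used. GTF2H3 was at -0.75 and -1.53, which is 0.56 and 0.92 further down. The other genes under 42% GC did not share this position. GTF2H1, GTF2H5, CCNH and MNAT1, with 36.4% to 40.8% GC, lay between 0.03 and 0.82 above the median of genes like them in both KD libraries. ERCC3 lay 0.36 and 0.17 below its own. Against GTF2H3 and these 4 genes alone, a comparison chosen after seeing the data, the GTF2H3 share was 21.5% and 21.8% in WT and 14.6% and 11.4% in KD. The log2 ratio of the means was then -0.74.

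With offsets for length and GC content, the log2 fold change of GTF2H3 was -0.66 (SE 0.135). Of the partners, 4 shifted upward, to 0.54 for MNAT1 (adjusted p = 0.0874, without passing the fold change), 0.40 for GTF2H5 (adjusted p = 0.196), 0.26 for GTF2H1 (adjusted p = 0.186) and 0.07 for CCNH (adjusted p = 0.710). ERCC2 was at 0.10 (adjusted p = 0.648) and ERCC3 at -0.22 (adjusted p = 0.256). The signs of GTF2H1, CCNH and MNAT1 thus turned. GTF2H3 lay below every partner in each of the 14 fits run, all of which reuse the libraries on which it was chosen. The median log2 fold change of the 6 partners went from -0.07 to 0.18.

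**Figure D4:**
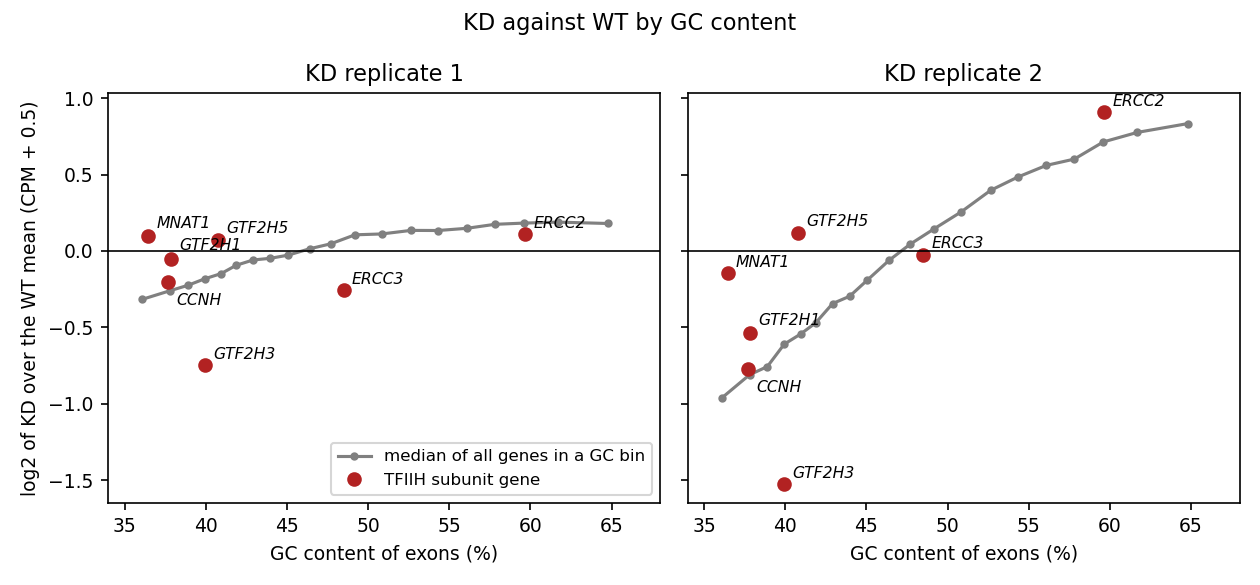
Log2 ratio of each KD library to the WT mean (CPM + 0.5) against exon GC content in percent. Grey points joined by lines are medians of all genes in 20 GC bins, and red points are the 7 TFIIH subunit genes. The grey line is steeper in KD replicate 2, and GTF2H3 lies below it in both panels, by 0.56 and 0.92.

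EIF2B1, which shares the start region and the mH2A1.1 peak with GTF2H3, was at 55.1 and 57.6 CPM in WT and 64.8 and 68.1 CPM in KD. Both KD libraries were above both WT libraries, as for 32.5% of all genes tested. For GTF2H3 both were below, as for 32.4%. The log2 fold change of EIF2B1 was 0.23 (SE 0.177, adjusted p = 0.414), and 0.33 with offsets for length and GC content (adjusted p = 0.140), so the difference did not pass the test. GTF2H3 made up 50.9% and 49.4% of the reads of this gene pair in WT and 34.2% and 22.2% in KD. This pair was set side by side after seeing the data.

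The other start regions with a neighbour in opposite orientation were those of GTF2H1 and GTF2H5. HPS5, a lysosome-related organelle factor that starts 97 bp upstream of GTF2H1, had a log2 fold change of -0.18 (SE 0.209, adjusted p = 0.600), and -0.021 without KD replicate 2. SERAC1, a lipid remodelling protein that starts 70 bp upstream of GTF2H5, was at -0.38 (SE 0.229, adjusted p = 0.317), with 20.1 and 18.9 CPM in WT and 16.4 and 12.8 CPM in KD. Neither neighbour nor its TFIIH partner gene passed the test, which 0 of all 10963 genes tested passed.

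**Figure D5:**
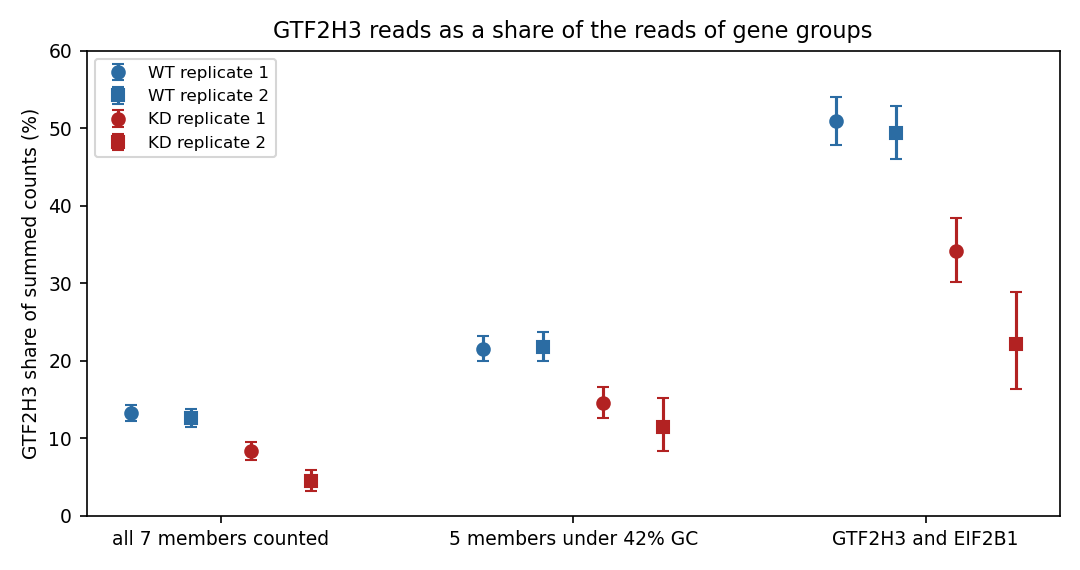
GTF2H3 reads as a percentage of the summed counts of 3 gene groups in each library, with exact Clopper-Pearson 95% intervals for counting error. The groups are the 7 counted TFIIH genes, the 5 of them under 42% GC, and GTF2H3 with EIF2B1. In each group the 2 KD points (red) lie below the 2 WT points (blue). GTF2H3 was chosen on these libraries, so the intervals are not a test between WT and KD.

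Levels were compared between genes per kb of exon in WT cells. ERCC2 was highest at 14.8 ± 1.80 CPM per kb (SD, n = 2), followed by GTF2H3 at 14.2 ± 0.167, GTF2H1 at 12.0 ± 0.172 and CCNH at 11.1 ± 0.252. ERCC3 followed at 8.97 ± 0.338, MNAT1 at 7.97 ± 0.388 and GTF2H5 at 2.82 ± 0.320 CPM per kb. ERCC2 and GTF2H3 differed by less than the spread of ERCC2, and the other neighbours in this order were further apart than their SDs. Per kb of the longest coding transcript the order was another, with CCNH at 27.9, GTF2H1 at 27.7, ERCC3 at 27.1, ERCC2 at 25.1, GTF2H3 at 17.1, MNAT1 at 11.7 and GTF2H5 at 3.31 CPM per kb. GTF2H5 and MNAT1 were lowest by either length. In KD cells GTF2H3 was at 6.64 ± 2.52 CPM per kb of exon (SD, n = 2). MNAT1 at 7.86 ± 0.945, CCNH at 8.07 ± 2.25 and ERCC3 at 8.16 ± 0.932 lay within the spread of GTF2H3.

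Exons of some of these genes overlap genes on the other strand, and whether the counting used strand was not settled here. CCNH shares 771 bp (12.9% of its exons) with RASA1, ERCC2 shares 535 bp (7.71%) with KLC3 and GTF2H3 shares 28 bp (0.701%) with EIF2B1.

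The factors that work with TFIIH were examined as lists. Of 21 other preinitiation complex factors (TFIIA, TFIIB, TFIID, TFIIE and TFIIF), 18 were tested. Their median log2 fold change was -0.04, against 0.01 over all genes. By edgeR 0 of them were called, as were 0 of all 10963 genes tested. DESeq2 called 1 of the 16 with an adjusted p, against 11.3% of all genes. This was GTF2A1, a TFIIA subunit, which was at 173 and 160 CPM in WT and 121 and 88.8 CPM in KD. Its log2 fold change in the Wald test of DESeq2, with Benjamini-Hochberg adjustment here and below, was -0.67 (adjusted p = 0.0984), and with offsets for length and GC content in edgeR it was -0.04 (adjusted p = 0.827). Without KD replicate 2 GTF2A1 was at -0.45. With the offsets, edgeR called 2 of the 18, against 5.41% of all genes, both as higher, TAF11 of TFIID at 0.62 (adjusted p = 0.0940) and GTF2E1 of TFIIE at 0.81 (adjusted p = 0.0534), and the median of the list was 0.14. TAF1 lies on chromosome X, and TAF4 and TAF9 are not analysed here.

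Of 17 nucleotide excision repair factors outside TFIIH, 16 were tested, and their median log2 fold change was -0.12. By edgeR 0 of them were called, as were 0 of all 10963 genes tested. DESeq2 called 1 of the 15 with an adjusted p, against 11.3% of all genes. This was XAB2, a splicing and repair factor, at 50.0 and 53.9 CPM in WT and 63.1 and 132 CPM in KD. Its log2 fold change in DESeq2 was 0.88 (adjusted p = 0.0851). XAB2 was at 0.29 without KD replicate 2. With the offsets it was at 0.38 (adjusted p = 0.185), and edgeR called 1 of the 16, against 5.41% of all genes. This was RPA2, a subunit of the single-strand DNA binding complex RPA, lower at -0.82 (adjusted p = 0.0294). RPA2 was at 57.9 and 63.4 CPM in WT and 40.6 and 35.4 CPM in KD. Both KD libraries were thus below both WT libraries, as for 32.4% of all genes tested. CETN2 lies on chromosome X. TAF11, GTF2E1 and RPA2 were named after their values were seen.

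Of 6 listed genes whose proteins are kinases phosphorylated by CDK7 or the polymerase subunit POLR2A, 5 kinases were tested. Their median log2 fold change was -0.30. By edgeR 0 of them were called, as were 0 of all 10963 genes tested. DESeq2 called 1 of the 5, against 11.3% of all genes. This was CDK1, the mitotic kinase, at 207 and 168 CPM in WT and 114 and 56.2 CPM in KD. Its log2 fold change in DESeq2 was -1.13 (adjusted p = 0.0195). The KD values of CDK1 were all under the WT values, as for 32.4% of all genes tested. With the offsets the log2 fold change of CDK1 was -0.46 (adjusted p = 0.0807), which did not pass the fold. Without KD replicate 2 CDK1 was at -0.72. POLR2A is not analysed here. In each of the 3 lists the gene called by DESeq2, and named for that call, was nearer to 0 with the offsets in edgeR. The median of the 5 kinases moved the other way, from -0.30 to -0.40 with the offsets.

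The genes whose pattern over the 4 libraries lay nearest to that of GTF2H3 were sought among 4138 protein-coding genes with a mean CPM within 2-fold of it. Likeness was the Euclidean distance of centred log2 CPM, with a smaller value for a more similar pattern. The 5 nearest were ZGRF1, a DNA repair helicase (distance 0.0432), WDR76 (0.0650), ZNF22, a zinc finger protein (0.0672), CD302, a C-type lectin receptor (0.0818), and NEIL3, a DNA glycosylase (0.0855). ZGRF1 was at 64.8 and 62.6 CPM in WT and 37.0 and 22.2 CPM in KD, and NEIL3 was at 33.3 and 32.3 CPM in WT and 20.6 and 10.9 CPM in KD. All 5 have exons of 36.9% to 41.4% GC, the range in which GTF2H3 lies. Over the 3648 genes of lowest GC content, the median log2 ratio of KD replicate 2 to WT was -0.66. An mH2A1.1 peak at the TSS was present in 0 of the 5, against 46.9% of genes tested. The 5 were chosen by their values in these same libraries.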

How the data were processed

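RNA-seq covered 2 WT and 2 mH2A1.1 KD samples. The deposited counts per gene are the authors' htseq-count output, without normalization, after alignment to GRCh38 with STAR 2.5.1, a mapping quality filter and removal of duplicates, which also removes distinct molecules. The deposited peak lists hold positions and a score of 0 throughout. The authors called them on single libraries against input with normR. The input and the promoter capture Hi-C samples are not analysed here.

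The 23167 Ensembl identifiers were matched to GENCODE release 44, with 23061 matches. Counts were tested with edgeR 4.0.16 (TMM, filterByExpr, quasi-likelihood, R 4.3.3) outside chromosomes 21, 22 and X, and with DESeq2 1.42.0. A gene was called at a fold change above 1.5 and an adjusted p below 0.1, the thresholds of the study. Offsets removed lowess trends (span 0.3) of log2 CPM on exon length and GC content. The scripts were tested on simulated data. Other normalizations, filters, windows, lengths and each library left out were alternatives. The genes named were the TFIIH genes, the targeted gene, neighbours in opposite orientation, list members called by edgeR or DESeq2, and the 5 genes most like GTF2H3. The members and lists were chosen with earlier results of these data known.

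The deepest WT and the shallowest KD library held 9794674 and 2309549 counts. Intervals of read shares cover counting error only, and those of fold changes include the spread between libraries.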

Additional observations from a re-analysis of the deposited data

How the results depend on the processing

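The count of genes called moved most, from 0 with edgeR to 874 with DESeq2, 945 with DESeq2 on all chromosomes, 2139 without the filter on low counts, 593 and 468 with length and GC offsets in edgeR and DESeq2, and between 2 and 4744 with 1 library left out. For GTF2H3, the log2 fold change was -0.66 with the offsets in edgeR and -0.68 in DESeq2, and it lay between -1.56 and -0.75 with 1 library left out, the lowest without KD replicate 1. Its share of the TFIIH reads gave log2 ratios between -1.54 and -0.63 with 1 library left out. The sign turned with the offsets for GTF2H1 (0.26 in edgeR, 0.24 in DESeq2), CCNH (0.071, 0.057), MNAT1 (0.54, 0.56) and HPS5 (0.079, 0.085). With 1 library left out it also turned for GTF2H5, between -0.018 and 0.21 and lowest without WT replicate 2, and for MNAT1, between -0.16 and 0.098, where it was above 0 without WT replicate 1 (0.035) and without KD replicate 2. The cause was not tested. Without KD replicate 1, the log2 fold change was 0.91 for ERCC2, -0.79 for CCNH and -0.62 for SERAC1. In that fit the lone KD library is assumed to vary like the WT group.

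Replicate numbers are shared by WT and KD, but the labels do not say whether same-numbered libraries belong together (correlation of same-numbered deviations 0.236). The replicate block gave 2208 calls, and 869 with the offsets, where GTF2H3 was at -0.68, GTF2H1 at 0.28, CCNH at 0.077, MNAT1 at 0.56 and HPS5 at 0.073. With the block, 3 of 18 preinitiation factors, 3 of 16 repair factors and 1 of 5 kinases were called, against 2208 of all 10963 genes tested. The lists had 1, 1 and 1 calls with DESeq2 and 2, 1 and 0 with the offsets, and between 0 and 7, 0 and 6, and 0 and 3 with 1 library left out. The share called over all genes was 11.3% with DESeq2 and 5.41% with the offsets. The highest list counts came without KD replicate 1, the fit that also gave the highest count over all genes stated above. These list counts alone therefore do not set the lists apart from other genes. Of 130 alternative values for single genes, 112 kept their sign and side of the threshold. Leaving GTF2H2 out of the share was not run, since its counts are not analysed here. Depth was lowest in KD replicate 2, with 41 reads on GTF2H3. The coefficient of variation between libraries in edgeR was 0.166. It was 0.0538 with either KD library left out, where only the WT pair gives the spread. With either WT library left out, where only the KD pair gives it, the value was 0.244.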
